A study of Mus musculus with 18 samples.

Results

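The liver transcripts of 9 mouse genes that interferon-gamma switches on were followed across 18 mice: the transcription factor gene Irf1, the guanylate-binding protein genes Gbp2, Gbp3, Gbp6 and Gbp7, and the immunity-related GTPase genes Igtp, Irgm1, Irgm2 and Iigp1. They were taken by symbol, as a list drawn up with earlier results of these data known. All 9 of 9 were matched among the 23337 gene symbols counted in the 12 female livers. In the 6 male livers 8 of 9 were matched by Ensembl identifier among 38924 identifiers, and Gbp6 was not analysed there.

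Each of 6 groups held 3 mice killed at 8 weeks on a diet with 45% of its calories from fat. LDP males (mice 8, 10 and 11) and LDP females (39, 52 and 54) were C57BL6J mice given low-dose penicillin (LDP) from birth. Their controls were control males (5, 6 and 7) and control females (29, 30 and 32) of the same strain without the drug, and all of these mice were weaned at week 4 and fed the high-fat diet from week 6. LDP-microbiota recipients (2, 5 and 8) and control-microbiota recipients (1, 3 and 7) were female Swiss Webster mice born germ-free, which received no drug but were given, at week 3, the gut microbes of LDP females or of control females. The labels name separate mice but not their cages, litters or donors, so p-values measure the spread between these mice. The comparisons ask whether penicillin early in life, or the microbes it leaves, moves with liver interferon-gamma genes.

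Interferon-gamma, secreted mainly by natural killer and T cells, signals through the receptor chains Ifngr1 and Ifngr2 and the kinases Jak1 and Jak2. The signal acts at short promoter sites called GAS and induces Irf1, whose protein then binds interferon-stimulated response elements (ISRE) in front of many further genes. The guanylate-binding proteins and effector immunity-related GTPases such as Iigp1 gather on the membranes around bacteria and protozoa inside cells and break them. Hepatocytes as well as immune cells respond to interferon-gamma.

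Promoters of the members are shown because both sites can be read in them. The windows are the 250 bases before each annotated start in RefSeq (GRCm38.p6), written 5′ to 3′ on the strand of the gene, and capitals mark a GAS motif (TTCNNNGAA) or an ISRE core (GAAA and GAAA with 2 bases of any kind between them), each searched on both strands. The reference gave windows for 7 of 9 members, and Gbp6 and Iigp1 had none there. The upstream Irf1 window (chr11:53769764-53770013, plus strand) has a GAS 90 to 82 bases before the start, and the upstream Gbp3 window (chr3:142559794-142560043, plus strand) has overlapping ISRE cores.
Irf1: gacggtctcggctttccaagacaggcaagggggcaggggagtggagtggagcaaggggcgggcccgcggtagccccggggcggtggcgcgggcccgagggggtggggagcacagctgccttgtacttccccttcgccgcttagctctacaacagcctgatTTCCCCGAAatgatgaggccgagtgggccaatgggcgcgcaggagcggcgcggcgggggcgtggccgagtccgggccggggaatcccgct
Gbp3: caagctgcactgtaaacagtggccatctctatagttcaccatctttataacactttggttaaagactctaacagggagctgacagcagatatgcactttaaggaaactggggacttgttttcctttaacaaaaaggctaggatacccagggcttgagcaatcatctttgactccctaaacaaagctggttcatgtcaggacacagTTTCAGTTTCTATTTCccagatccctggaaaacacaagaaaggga
The Gbp7 window (chr3:142530086-142530335, plus strand) has 2 GAS motifs and 1 ISRE core. The Igtp (chr11:58199306-58199555) and Irgm2 (chr11:58214727-58214976) windows, both on the plus strand, hold a GAS next to an ISRE core, and the Irgm1 window (chr11:48871421-48871670, minus strand) holds overlapping ISRE cores and no GAS.
Gbp7: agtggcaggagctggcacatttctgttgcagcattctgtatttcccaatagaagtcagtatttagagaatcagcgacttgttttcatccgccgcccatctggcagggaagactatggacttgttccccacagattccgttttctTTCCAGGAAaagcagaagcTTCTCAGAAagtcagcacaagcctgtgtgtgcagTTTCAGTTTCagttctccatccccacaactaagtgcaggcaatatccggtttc
Igtp: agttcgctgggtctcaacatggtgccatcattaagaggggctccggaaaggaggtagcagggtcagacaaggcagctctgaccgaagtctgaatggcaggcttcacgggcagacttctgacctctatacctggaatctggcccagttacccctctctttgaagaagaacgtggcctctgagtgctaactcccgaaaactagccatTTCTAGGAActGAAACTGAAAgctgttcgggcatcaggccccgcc
Irgm2: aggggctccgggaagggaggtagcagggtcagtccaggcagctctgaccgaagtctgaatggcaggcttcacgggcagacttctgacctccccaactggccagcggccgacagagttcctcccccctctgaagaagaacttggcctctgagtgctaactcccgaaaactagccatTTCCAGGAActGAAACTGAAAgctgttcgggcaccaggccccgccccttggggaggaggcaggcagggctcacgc
Irgm1: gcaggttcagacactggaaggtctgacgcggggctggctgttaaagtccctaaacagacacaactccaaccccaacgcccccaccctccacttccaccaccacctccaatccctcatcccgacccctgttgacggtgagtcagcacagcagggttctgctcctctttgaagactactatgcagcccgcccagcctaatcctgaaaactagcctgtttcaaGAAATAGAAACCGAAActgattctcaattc
The Gbp2 window, not printed, has an ISRE core 59 to 50 bases before the start, and a second annotated window of Irf1 and of Gbp3 holds neither motif. Of the 9 windows of these members 4 held a GAS and 6 an ISRE core. Over all 32851 promoter windows of this length the shares were 7.02% and 2.98%. No GAS overlapped an ISRE core in the members. A match describes the letters only and is not evidence of binding.

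The library totals were 70336366 to 74418889 counts in males and 17937005 to 28646168 in females and recipients. No pair of libraries was alike within sampling noise. The hepatocyte gene albumin alone took 5.82% to 8.22% of the counts in males and 9.87% to 14.4% in the female table. The male and female tables were counted with different gene models, so levels are set side by side only within a table. Values are CPM, counts scaled to a common library size with TMM factors, and changes are edgeR log2 ratios with an approximate standard error (SE) and a Benjamini-Hochberg adjusted p over all genes tested, called at 0.05.

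Iigp1, the effector GTPase also known as Irga6, was by far the most abundant member per unit of length. The mouse liver is known to transcribe it from a separate promoter that does not need interferon. Iigp1 averaged 191 ± 35.1 CPM per kb in LDP males and 195 ± 10.1 in control males (SD, n = 3 each). In the female table it averaged 193 ± 30.7 in LDP females, 164 ± 11.5 in control females, 168 ± 17.9 in LDP-microbiota recipients and 159 ± 41.1 CPM per kb in control-microbiota recipients. In each of the 6 groups the gap to the next member was wider than the SDs of both added together.

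Below it stood, in most groups, the regulatory GTPases that sit on the cell's own membranes (Igtp, Irgm1 and Irgm2), and then Irf1 and the guanylate-binding proteins. Igtp averaged 34.6 ± 9.61 CPM per kb in LDP females and 32.1 ± 9.03 in control females, and Irgm2 26.0 ± 7.84 and 21.9 ± 2.86 in the same groups. These neighbours in the order did not differ beyond their spread. In males the order was turned, with Irgm2 at 16.1 ± 5.35 CPM per kb in LDP males and 17.95 ± 3.68 in control males above Igtp at 13.03 ± 4.61 and 15.6 ± 3.71, again within their spread. Irgm1 averaged 9.93 CPM per kb in LDP males and 11.1 in control males, and Irf1 5.44 and 6.69 in the same groups. Over the 4 group means of the female table Irgm1 ranged over 10.8 to 12.5 CPM per kb and Irf1 over 6.75 to 12.9. The order was not the same in every group, since Irgm1 stood above Irgm2 in both recipient groups and Irf1 above Irgm1 in LDP females, each within their spread. The guanylate-binding protein genes Gbp2, Gbp3 and Gbp7 lay at 3.00 to 5.31 CPM per kb in the male table and 2.88 to 10.47 in the female table, and in none of the 6 groups did neighbours among these 3 differ beyond their spread. Gene lengths are those of the male table, and Gbp6 has none here. The annotated Igtp and Irgm2 genes overlap on the same strand of chromosome 11, at 58199556 to 58207591 and 58199618 to 58222782, so their counts may share reads.

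**Figure D1:**
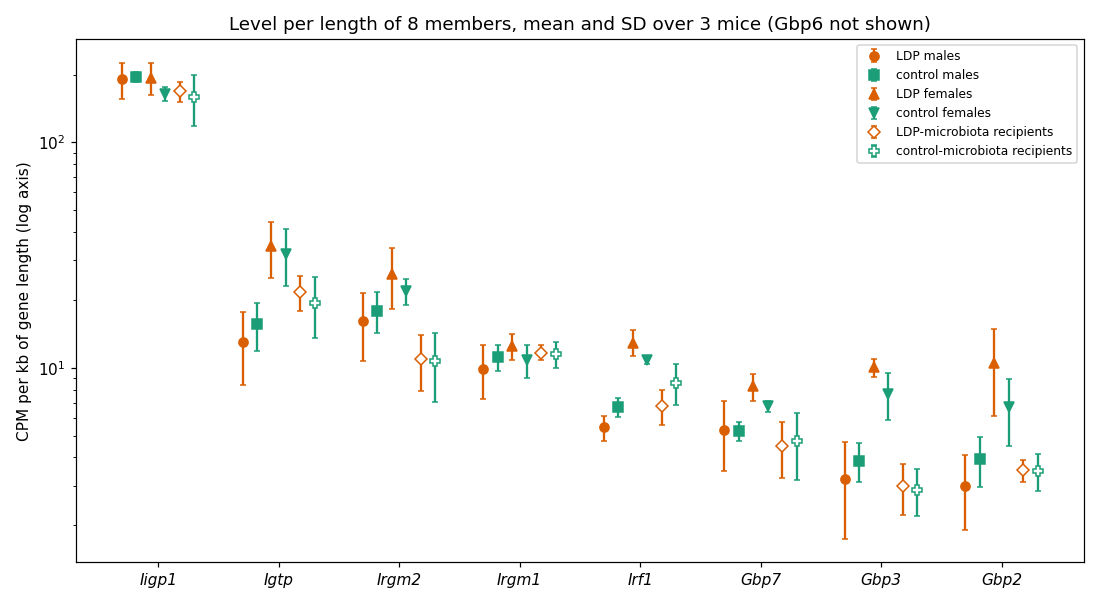
Level of 8 members as CPM per kb of gene length on a log axis, with symbols for the means of the 6 groups and bars for the SD over 3 mice. Iigp1 stands between 159 and 195 CPM per kb in each group, above the other 7 genes.

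Most members moved together from mouse to mouse inside each group, more than treatment separated the groups. The share of all genes with their highest or lowest value in the same mice was not counted. In males, LDP male 11 had the lowest value of the 6 mice for 7 of 8 members, and within the LDP males LDP male 10 had the highest for 7 of 8. Control male 5 was the highest control male for 8 of 8. In females, LDP female 54 was the highest of the 6 mice for 8 of 9 members, and control female 30 the lowest for 7 of 9. In the recipients, control-microbiota recipient 7 was the lowest of its group for 7 of 9 members and LDP-microbiota recipient 8 for 7 of 9. The highest mouse was less shared in some groups. It was LDP-microbiota recipient 2 for 5 of 9 members and LDP-microbiota recipients 5 and 8 for 2 of 9 each. Among the control females it was mouse 29 for 6 of 9 and mouse 32 for 3 of 9.

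Averaged over the 8 members, LDP males 8, 10 and 11 stood at -0.28, 0.19 and -0.56 on the log2(CPM + 1) scale relative to the mean of the control males. Over 9 members LDP females 39, 52 and 54 stood at -0.03, 0.32 and 0.56 relative to the control females. LDP-microbiota recipients 2, 5 and 8 stood at 0.15, 0.11 and -0.19 relative to the control-microbiota recipients. The mice of 1 group thus differed from each other by more than the groups did. The control mice alone spanned -0.21 to 0.21 in males, -0.23 to 0.21 in females and -0.36 to 0.25 in recipients.

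The spread between mice was wider than that of most genes, which were not matched for level. Within the male table it was wider in LDP males than in control males, with 3 mice in each. The median SD of the members on the log2(CPM + 1) scale was 0.45 in LDP males and 0.23 in control males, against 0.11 and 0.09 over all genes tested. It was 0.24 in LDP females and 0.23 in control females, against 0.13 and 0.14 over all genes. It was 0.26 in LDP-microbiota recipients and 0.39 in control-microbiota recipients, against 0.16 over all genes in both. The members' median lay above the SD of 97.4% of genes in LDP males and 93.2% in control males, of 81.7% in LDP females and 77.1% in control females, and of 78.9% in LDP-microbiota recipients and 91.1% in control-microbiota recipients.

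**Figure D2:**
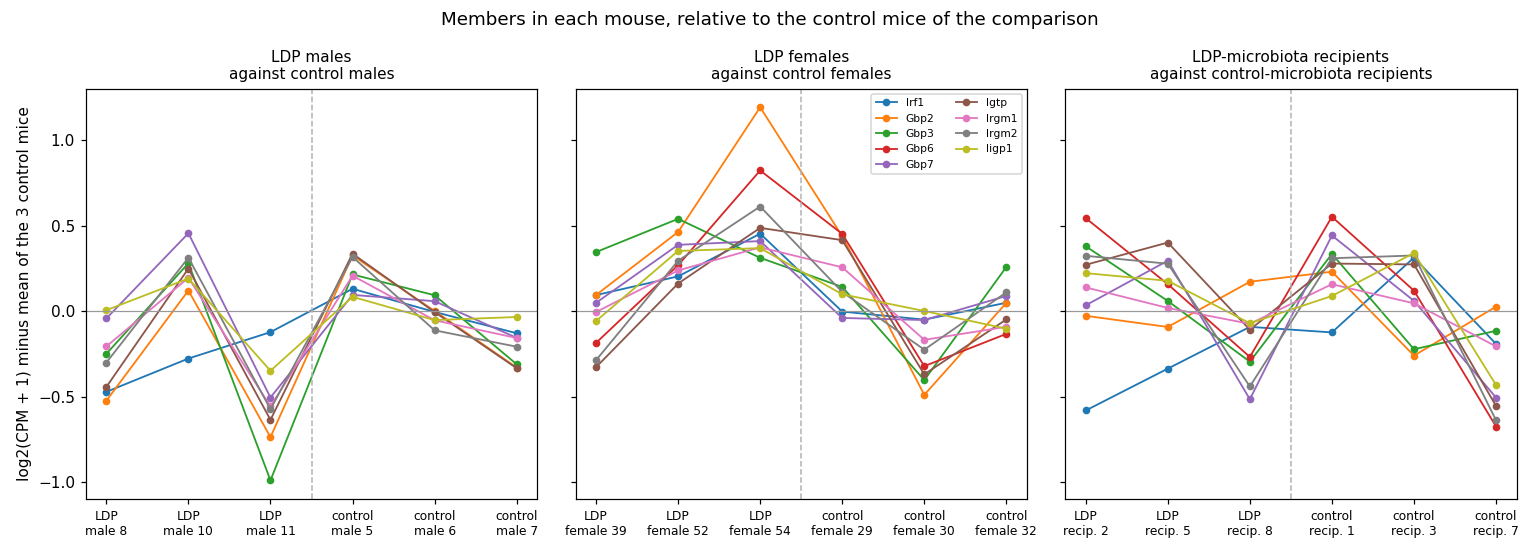
Each member (coloured lines) in each mouse, as log2(CPM + 1) minus the mean of the 3 control mice of the comparison. Most lines dip together in LDP male 11 and peak together in LDP female 54, and Irf1 does not follow the others in the LDP males.

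Genes outside the list were ranked by how near their pattern over the 18 mice lay to the mean of the members. Likeness was the root mean square (RMS) difference of log2(CPM + 1), centred within each 6-mouse comparison, with a median of 0.28 over 10228 genes. Among the nearest were Tap1, the peptide pump of antigen presentation (RMS 0.11), the nuclear body gene Sp100 (0.11), the antiviral nucleotide hydrolase Samhd1 (0.12), the checkpoint ligand Cd274 (0.13), the GTPase Tgtp2 (0.13), the RNA editing enzyme Adar (0.13) and the protease Adam19 (0.14). The 18 mice share tissue and 3 sets of controls, so this likeness is a description. Among the members themselves Irgm1 followed the shared pattern most closely by this measure, with an RMS of 0.07. Irf1 followed it least, with 0.26, and Gbp2 had 0.24 and Gbp3 0.20. A gene with no change at all would have 0.24. The RMS counts the size of a gene's changes as well as their pattern, and each of these members is part of the mean. In the LDP males Irf1 was highest in LDP male 11, the mouse in which the other 7 members were lowest.

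In LDP males against control males no member passed the test (0 of 8, edgeR; also 0 with DESeq2), where 0.00648% of 15438 genes were called. The log2 change was below 0 for 7 of 8 members, against 49.3% of all genes, with a median of -0.21 against 0.00. Groups overlapped for 8 of 8 members, where 4.81% of genes lay wholly lower. Irf1 alone had an unadjusted p under 0.05, as 2.06% of genes had in that direction.

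Irf1, the transcription factor, had 18.9, 21.7 and 24.3 CPM in LDP males 8, 10 and 11, against 29.1, 26.4 and 24.2 CPM in control males 5, 6 and 7. The groups met only at their edges, where LDP male 11 and control male 7 had nearly the same level. The log2 change was -0.30 (SE 0.104, unadjusted p = 0.0187, adjusted p = 0.920). Without LDP male 11 it was -0.39, with an adjusted p of 0.160, and without LDP male 8 it was -0.21.

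Among the guanylate-binding proteins, Gbp2 had 6.49, 10.7 and 5.47 CPM in LDP males 8, 10 and 11, against 12.5, 9.78 and 7.57 CPM in control males 5, 6 and 7. Gbp3 had 10.3, 15.2 and 5.74 CPM in the LDP males, against 14.5, 13.3 and 9.79 CPM in the control males. In both genes LDP male 10 lay among or above the controls and LDP male 11 below all of them. The log2 changes were -0.39 for Gbp2 (-0.20 without control male 5 and -0.74 without LDP male 10) and -0.26 for Gbp3 (0.029 without LDP male 11), and 0.02 for Gbp7, which averaged 29.5 ± 10.1 CPM in LDP males and 29.1 ± 2.75 CPM in control males (SD, n = 3 each).

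Among the immunity-related GTPases LDP male 11 was again the lowest of the 6 mice, and LDP male 10 or control male 5 the highest. Igtp had 22.5, 37.0 and 19.6 CPM in LDP males 8, 10 and 11, against 39.3, 30.8 and 24.4 CPM in control males 5, 6 and 7. Its log2 change was -0.26 (SE 0.299), and that of Irgm1 was -0.16, of Irgm2 -0.16 and of Iigp1 -0.03. Single mice of both groups set much of the direction. The median change of the 8 members was 0.01 without LDP male 11, -0.42 without LDP male 10 and -0.061 without control male 5.

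In LDP females against control females the direction was the opposite, and again no member passed the test (0 of 9, edgeR; also 0 with DESeq2), where 0% of 12914 genes were called. All 9 of 9 log2 changes were above 0, against 50.9% of genes, with a median of 0.26 against 0.00. Gbp7, Irf1 and Gbp3 had an unadjusted p under 0.05 and were higher, as 2.69% of genes were. Irf1 and Gbp3 were wholly higher in LDP females, as 4.97% of genes were.

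Irf1 had 45.8, 49.5 and 59.1 CPM in LDP females 39, 52 and 54, against 42.8, 41.4 and 44.4 CPM in control females 29, 30 and 32. The control mice lay close together and each LDP female lay above them. The log2 change was 0.26 (SE 0.113, unadjusted p = 0.0428, adjusted p = 0.999). Without LDP female 54 it was 0.15.

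Gbp3 had 31.2, 35.9 and 30.5 CPM in LDP females 39, 52 and 54, against 27.0, 18.2 and 29.4 CPM in control females 29, 30 and 32. The groups were separate, by a narrow margin between LDP female 54 and control female 32. Its log2 change was 0.39 (SE 0.170, adjusted p = 0.999), and 0.20 without control female 30. Gbp7 averaged 46.1 ± 6.31 CPM in LDP females and 37.5 ± 2.11 CPM in control females (SD, n = 3 each), a log2 change of 0.30.

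Gbp2 showed the largest log2 change of the members in females, 0.64 (SE 0.361, adjusted p = 0.999). It had 17.5, 22.9 and 38.6 CPM in LDP females 39, 52 and 54, against 22.5, 11.4 and 16.9 CPM in control females 29, 30 and 32. LDP female 54 stood apart and LDP female 39 lay among the controls. Without LDP female 54 the change was 0.26, and without control female 30 it was 0.41.

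Gbp6 averaged 18.03 ± 6.66 CPM in LDP females and 14.2 ± 4.45 CPM in control females (SD, n = 3 each), with a log2 change of 0.35, 0.025 without LDP female 54 and 0.62 without control female 29. Of the immunity-related GTPases, Irgm2 had 64.5, 97.0 and 121 CPM in LDP females 39, 52 and 54, against 85.4, 67.4 and 85.3 CPM in control females 29, 30 and 32. LDP female 39 was below all controls and the other LDP females above all of them. The log2 changes were 0.25 for Irgm2, 0.23 for Iigp1, 0.20 for Irgm1 and 0.11 for Igtp. Without LDP female 54 the median of the 9 members was 0.15, and without LDP female 39 it was 0.41.

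**Figure D3:**
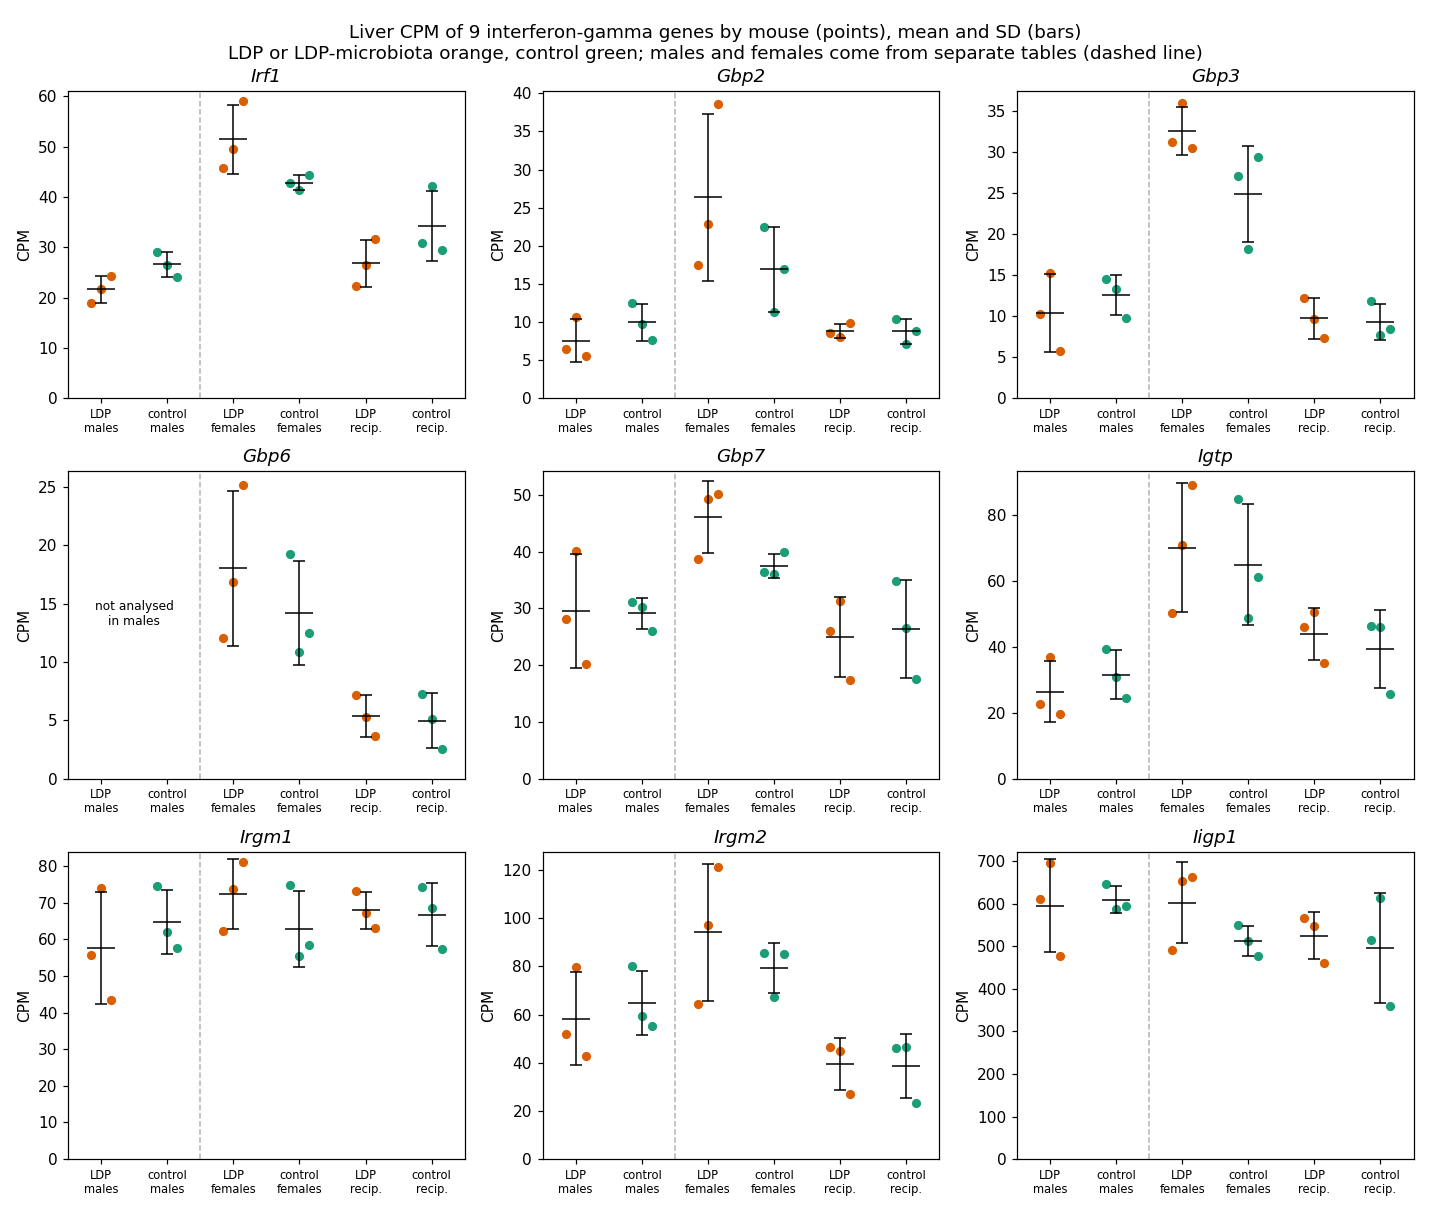
CPM of the 9 members in each mouse (points, LDP or LDP-microbiota orange, control green) with the mean and SD over 3 mice (black bars). The 2 groups of each pair overlap in most panels. Gbp3 lies at 12.2 CPM or less in all 6 recipients, against 18.2 or more in the 6 C57BL6J females. Gbp6 lies at 7.23 CPM or less in the recipients, against 10.9 or more in these females.

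The test of the difference between the sexes did not pass for any member (0 of 8 with edgeR and 0 with DESeq2), where 0% of 12747 genes were called. Each change was taken within a table, but sex, gene model and depth differ together between the tables and cannot be told apart. The male minus female difference of log2 changes was below 0 for 8 of 8 members, against 52.7% of genes, with a median of -0.40. Irf1 had the smallest p, with a difference of -0.57 (SE 0.163, unadjusted p = 0.00395, adjusted p = 0.9999), and it was the only member under 0.05, as 1.48% of genes were in that direction. For Gbp2 the difference was -1.04 (SE 0.515), for Gbp3 -0.66, and for the other 5 members -0.28 to -0.42. Leaving out LDP male 11 moved the median to -0.21, control male 5 to -0.24, LDP female 54 to -0.25, LDP female 39 to -0.60 and LDP male 10 to -0.64.

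After transfer of the microbes alone the members were close to even between the recipients. In LDP-microbiota recipients against control-microbiota recipients 0 of 9 passed the test (edgeR; also 0 with DESeq2, and 0 at an unadjusted p under 0.05), where 0.00782% of 12780 genes were called and 5.11% had an unadjusted p under 0.05. Changes were above 0 for 7 of 9 members, against 48.4% of genes, with a median of 0.03 (-0.10 without LDP-microbiota recipient 2, -0.097 without control-microbiota recipient 7 and 0.17 without LDP-microbiota recipient 8), and groups overlapped for 9 of 9, where 6.1% of genes were wholly higher and 5.5% wholly lower. Irf1 was the member with the largest change in size, in the downward direction. It had 22.3, 26.6 and 31.7 CPM in LDP-microbiota recipients 2, 5 and 8, against 30.9, 42.2 and 29.5 CPM in control-microbiota recipients 1, 3 and 7. LDP-microbiota recipient 8 lay among the controls, and the log2 change was -0.35 (SE 0.178, adjusted p = 0.846). The changes of the other 8 members lay between -0.08 for Gbp7 and 0.16 for Igtp, with SEs of 0.128 to 0.388.

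The female minus recipient difference of log2 changes was above 0 for 8 of 9 members, against 49.7% of genes. The median difference was 0.22 (0.072 without LDP female 54 and 0.47 without control-microbiota recipient 7). None passed the test (0 of 9 with edgeR and 0 with DESeq2, where 0% of 13295 genes were called). The drug, strain, germ-free start, transfer and match of reads to the C57BL6J genome differ together between these pairs and cannot be told apart. The difference for Irf1 was 0.60 (SE 0.222, unadjusted p = 0.0177, adjusted p = 0.788), and it was the only member with an unadjusted p under 0.05, as 2.95% of genes had in that direction. The level of Irf1 was thus higher in LDP females and lower in both LDP males and LDP-microbiota recipients than in their controls, with none of these changes past the test.

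The widest contrast of the members lay between the recipients and the C57BL6J females. In control-microbiota recipients against control females, Gbp3 and Gbp6 fell, 2 of 9 members against 5.59% of 13295 genes called lower, and 5 of 9 were lower at an unadjusted p under 0.05, as 12.6% of genes were. Of the 9 changes 8 were below 0, against 48.8% of genes. The median log2 change of the members was -0.73 against 0.01 over all genes. The groups were separate for 6 of 9 members, all lower in the recipients, as 14% of genes were. Strain, the germ-free start, the transfer and the match of Swiss Webster reads to the C57BL6J genome cannot be told apart here. The labels do not give the week at which the recipients' high-fat diet began, so its timing may differ as well.

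Gbp3 had 11.8, 7.72 and 8.39 CPM in control-microbiota recipients 1, 3 and 7, against 27.0, 18.2 and 29.4 CPM in control females 29, 30 and 32. Every recipient lay below every female. The log2 change was -1.42 (SE 0.223, adjusted p = 0.00147), and the call held when any of the 6 mice was left out.

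Gbp6 had 7.23, 5.10 and 2.52 CPM in control-microbiota recipients 1, 3 and 7, against 19.3, 10.9 and 12.5 CPM in control females 29, 30 and 32. These groups were separate as well. The log2 change was -1.53 (SE 0.406, adjusted p = 0.0371), and it was -1.25, -1.69, -1.61, -1.55 and -1.21 without control female 29, 30 or 32 or without control-microbiota recipient 3 or 7, with adjusted p of 0.122, 0.0516, 0.0728, 0.105 and 0.0750, so the call ended in each of these.

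Irgm2 and Gbp2 missed the threshold in edgeR and passed it in DESeq2. Irgm2 had 46.0, 46.6 and 23.4 CPM in control-microbiota recipients 1, 3 and 7, against 85.4, 67.4 and 85.3 CPM in control females 29, 30 and 32, a log2 change of -1.04 (SE 0.308, adjusted p = 0.0572, DESeq2 0.00460). Gbp2 averaged 8.77 ± 1.64 CPM in the recipients and 16.9 ± 5.57 CPM in the females (SD, n = 3 each), a log2 change of -0.95 (adjusted p = 0.0721, DESeq2 0.0141). For Igtp it was -0.73, for Gbp7 -0.52 and for Irf1 -0.33, with adjusted p of 0.144, 0.225 and 0.225.

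Irgm1 and Iigp1 did not share the gap. Irgm1, which keeps the effector GTPases off the cell's own membranes, had 74.2, 68.6 and 57.5 CPM in control-microbiota recipients 1, 3 and 7, against 74.7, 55.4 and 58.5 CPM in control females 29, 30 and 32. Iigp1 had 515, 614 and 359 CPM in the recipients, against 549, 513 and 477 CPM in the females. The values overlapped in both genes, with log2 changes of 0.08 (SE 0.142) for Irgm1 and -0.05 (SE 0.181) for Iigp1. Whether their change differs from that of Gbp3 was not tested.

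Ratios of counts within a library need no scaling between libraries, and 1 of them was chosen after its values were seen. Irgm2 had 0.428 to 0.669 counts for each Irgm1 count in LDP-microbiota recipients and 0.407 to 0.679 in control-microbiota recipients. It had 1.04 to 1.49 in LDP females and 1.14 to 1.46 in control females, so no recipient reached a C57BL6J female. Per Irgm1 count, LDP males had 0.933 to 1.08 and control males 0.956 to 1.08 in the male table. The ratio of Irgm2 to Igtp counts separated the LDP pair, with 0.769 to 1.012 in LDP-microbiota recipients against 1.29 to 1.37 in LDP females. The control pair overlapped only at its edges, with 0.918 to 1.012 in control-microbiota recipients against 1.009 to 1.39 in control females.

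The mice that carried penicillin or its microbes were set against each other in the same way after the data had been seen. They share no animal with the contrast above, but both contrasts come from the same fit of 12 libraries and share its estimate of spread. The same differences in strain, germ-free start, transfer and read match apply. In LDP-microbiota recipients against LDP females 6 of 9 members fell, where 17% of genes were called and 9.09% called lower, and all 9 changes were below 0, against 49.9% of genes. Gbp3 had 12.2, 9.60 and 7.29 CPM in LDP-microbiota recipients 2, 5 and 8, against 31.2, 35.9 and 30.5 CPM in LDP females 39, 52 and 54, with a log2 change of -1.74 (adjusted p = 0.000306). The changes were -1.75 for Gbp6, -1.57 for Gbp2, -1.25 for Irgm2, -0.93 for Irf1 and -0.88 for Gbp7, with adjusted p of 0.0142, 0.00540, 0.0195, 0.00179 and 0.0279. Igtp at -0.67, Iigp1 at -0.19 and Irgm1 at -0.09 did not pass, with adjusted p of 0.126, 0.479 and 0.703.

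**Figure D4:**
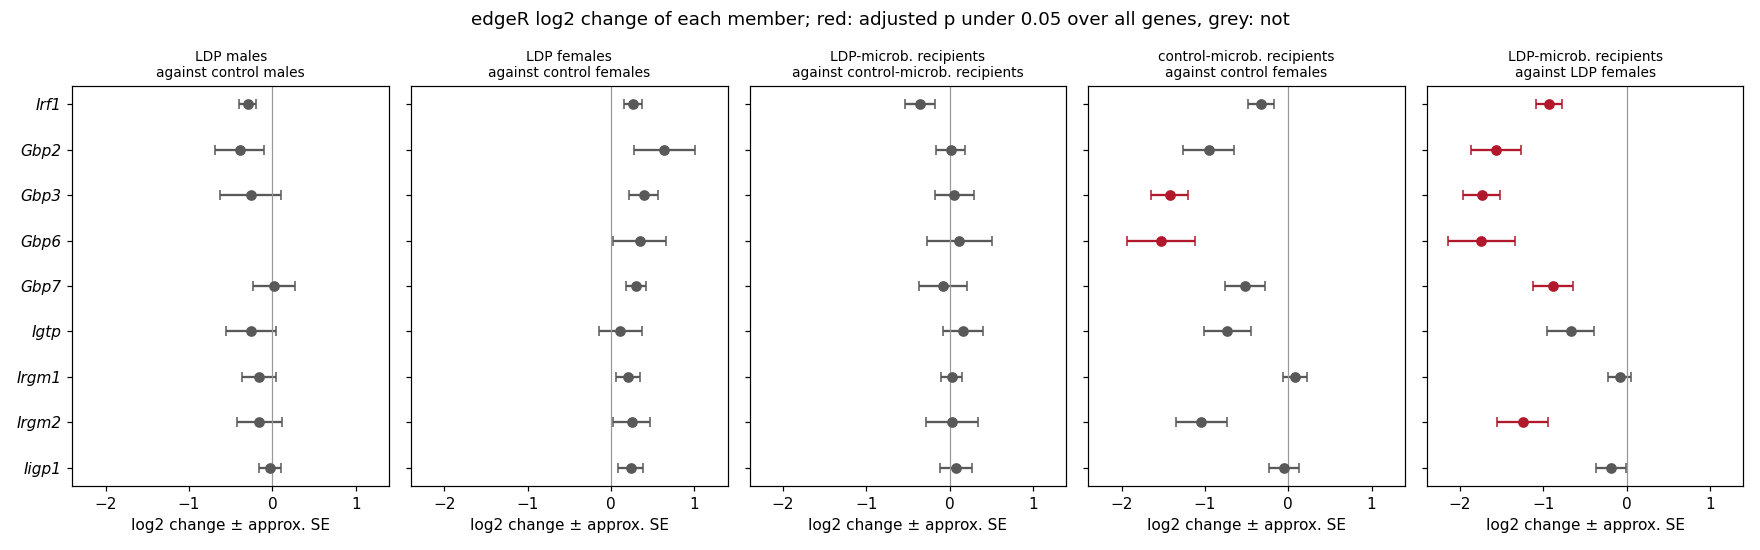
Log2 change of each member with its approximate SE in 5 comparisons, red where the adjusted p over all genes was under 0.05. The 3 treatment comparisons hold no red point, and the 2 comparisons of recipients with C57BL6J females hold 2 and 6.

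Gbp6 lies in a row of similar genes on chromosome 5 (105014150 to 105346472) with Gbp4, Gbp8, Gbp9, Gbp10 and Gbp11, and reads may be shared among them. Gbp11, annotated as a polymorphic pseudogene beside Gbp6, rose in the recipients and averaged 51.2 ± 24.4 CPM in control-microbiota recipients and 10.49 ± 1.56 CPM in control females (SD, n = 3 each; log2 change 2.28, adjusted p = 0.00786). Of the counts in the 6 genes, Gbp6 took 3.59% to 5.22% in LDP-microbiota recipients and 4.72% to 5.91% in control-microbiota recipients. In LDP females it took 19.6% to 20.8%, and in control females 18.4% to 23.8%. Gbp11 took 57.5% to 64.6% in LDP-microbiota recipients and 43.3% to 60.0% in control-microbiota recipients, against 17.4% to 23.2% in LDP females and 12.7% to 20.5% in control females. The fall of Gbp6 therefore came with a rise of its neighbour, and the part of read assignment in it was not tested. The shares were chosen for display after the values had been seen.

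The rest of the interferon-gamma system gave no called gene in the 3 treatment comparisons. Among the other interferon-gamma GTPases, 12 of 16 tested were lower in LDP males (median -0.16, Gbp4 -0.33, Tgtp2 -0.48 and Gbp8 -0.21) and 13 of 14 were higher in LDP females (median 0.35). Gbp9 had 12.7 ± 3.28 CPM in LDP females and 8.06 ± 0.797 CPM in control females (SD, n = 3 each), a log2 change of 0.66 with an adjusted p of 0.999, and Gbp11 and Tgtp2 had 0.80 and 0.48. In the LDP-microbiota recipients 8 of 13 were higher (median 0.06, Ifi47 0.34). The medians over all genes tested were 0.00, 0.00 and -0.01 in these 3 comparisons.

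The ligand itself was near the floor of detection. Ifng had 0 to 4 counts per library in LDP males and 4 to 8 in control males, 1 to 6 in LDP females and 1 to 2 in control females, and 1 to 2 in LDP-microbiota recipients and 1 in each control-microbiota recipient, too few for a test. Receptor chains were present at similar levels. Ifngr1 averaged 20.8 ± 0.981 CPM in LDP males and 19.7 ± 1.23 CPM in control males, and 29.96 ± 3.41 CPM in LDP females and 29.3 ± 2.68 CPM in control females (SD, n = 3 each). Of the ligand, receptor and signalling genes, 8 of 15 were higher in LDP males (Jak2 0.15, Il18r1 0.61, Socs3 -0.72), 11 of 14 in LDP females (Il18r1 1.56, Il12rb1 -0.54) and 3 of 11 in LDP-microbiota recipients (Il18 0.31, Il15 -0.45). In control-microbiota recipients against control females 2 of 14 fell, where 5.59% of all genes were called lower and 4.54% higher, among them the interleukin-12 receptor chain Il12rb1 with a log2 change of -1.82 (adjusted p = 0.00397). Il12rb1 had few counts per library, with 5 to 9 in control-microbiota recipients, 22 to 23 in control females and 15 to 20 in LDP females.

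In the family of Irf1 itself, Irf7, the factor that amplifies type I interferon, had log2 changes of -0.36 in LDP males, 0.37 in LDP females and -0.04 in LDP-microbiota recipients, none called. It fell in control-microbiota recipients against control females, by 1.37 on the log2 scale (adjusted p = 0.00157), where Irf2 (0.46) rose. Of the 10 family genes tested there 1 was called lower and 2 higher, where 5.59% and 4.54% of all genes were. Of 28 other interferon-gamma and Irf1 targets 23 were higher in LDP females (median 0.14), with the chemokine Cxcl10 at 1.36, Xaf1 at 0.41 and Parp14 at 0.27. Cxcl10 had 6.31, 7.29 and 24.9 CPM in LDP females 39, 52 and 54, against 7.29, 3.72 and 4.05 CPM in control females 29, 30 and 32, so LDP female 54 alone stood apart. In LDP males 20 of 30 were lower (median -0.05, Ifi30 -0.20, Ubd -0.89, Cxcl10 -0.49). In LDP-microbiota recipients 16 of 28 were higher (median 0.04), with B2m at 0.39, Cxcl10 at 0.82 and Cxcl9 at 0.55. In control-microbiota recipients against control females Tap1 (-0.86), Ifi30 (-0.53), Il18bp (-0.50) and Cd274 (-0.90) fell and Tap2 (0.72) rose. Of these 28 targets 4 were called lower and 1 higher, where 5.59% and 4.54% of all genes were.

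Genes induced mainly by type I interferon, through ISRE rather than GAS, showed the same directions as the members. They were lower for 22 of 25 in LDP males (median -0.21, Bst2 -0.32, Ifi27 -0.32, Rsad2 -0.48) and higher for 23 of 24 in LDP females (median 0.32, Ifit2 0.80, Rsad2 0.65, Cmpk2 0.66). Against 3 of 9 members, 13 of these 24 genes in LDP females had an unadjusted p under 0.05 (edgeR) and were higher, as 2.69% of all genes were. Against 2 of 9 members, 11 of 24 were wholly higher, as 4.97% of all genes were. None of the 24 was called. In LDP-microbiota recipients 16 of 24 were higher (median 0.08, Rsad2 0.59). In control-microbiota recipients against control females 11 of 24 fell, where 5.59% of all genes did, among them Oasl2 (-1.42), Ifit2 (-1.37) and Ifit3 (-3.02). The ATG8 conjugation genes, which target these GTPases to membranes, held no call in the 3 treatment comparisons (medians -0.03, -0.05 and 0.11). Atg5 (0.46), Gabarapl1 (0.38) and Atg7 (0.39) rose in control-microbiota recipients against control females. That was 3 of 11 called higher, where 4.54% of all genes were.

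Whole liver was sequenced, so fewer cells of a type and less RNA per cell cannot be told apart. The markers of Kupffer cells, the macrophages of the liver, were lower for 12 of 12 in LDP males, with summed levels of 521 to 554 CPM in LDP males against 604 to 737 CPM in control males, and 6 of 12 were lower in LDP females, at 927 to 1163 against 864 to 1168 CPM. In the recipients they were 767 to 890 CPM in LDP-microbiota recipients and 679 to 1019 CPM in control-microbiota recipients. The markers of natural killer and T cells, the usual source of the ligand, summed to 9.50 to 12.98 CPM in LDP males against 11.6 to 12.5 CPM in control males. They summed to 11.5 to 22.9 CPM in LDP females against 10.3 to 18.6 CPM in control females, and to 11.001 to 14.9 CPM in LDP-microbiota recipients against 11.1 to 14.5 CPM in control-microbiota recipients.

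Monocyte, macrophage and neutrophil markers were higher for 8 of 9 in LDP females, summed to 110 to 119 CPM against 80.4 to 106 CPM in control females, and lower for 8 of 12 in LDP males, at 62.9 to 69.0 against 73.0 to 79.4 CPM. Mesothelial markers, of the liver's surface lining, were higher for 4 of 4 in LDP females, at 8.11 to 21.4 against 4.83 to 5.95 CPM, and stellate cell and matrix markers for 9 of 12. Mesothelial markers were also higher for 5 of 5 in LDP males, where the members were mostly lower, at 2.37 to 10.2 against 2.59 to 7.16 CPM. Stellate and matrix markers were higher for 9 of 12 in LDP males too, at 412 to 851 against 590 to 676 CPM. The lowest of these sums, 2.37 and 412 CPM, were both those of LDP male 11. In control-microbiota recipients against control females Kupffer markers were lower for 12 of 12, with 1 called (C1qb, -0.57). Stellate and matrix markers were lower for 11 of 12, with 3 called. Monocyte, macrophage and neutrophil markers were lower for 7 of 10, with 2 called, and B and plasma cell markers for 5 of 6, with 1 called. Natural killer and T cell markers were lower for 13 of 16, with 0 called. Over all genes 48.8% were below 0 and 5.59% were called lower. The part of these cells in the levels of the members was not tested.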

How the data were processed

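Per the labels' protocols, RNeasy Mini columns gave the liver RNA and TruSeq v2 the libraries, with strand not stated. Per the submitters' processing notes the tools were featureCounts 1.4.3-p1, HTSeq 0.5.3p9, DESeq and STAR 2.3.0e on mm10, with no role given for each, and the handling of reads that match several genes is not given in the sources used here. The authors deposited raw read counts for each mouse and gene, in a male table by Ensembl identifier with a gene length and a female table by symbol. Male identifiers were named from GENCODE M21 (37607 of 38924, 96.6%).

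Genes that passed filterByExpr (minimum count 10, total 15) were tested over the whole table with edgeR 4.0.16 (TMM, robust quasi-likelihood F test, Benjamini-Hochberg, threshold 0.05, R 4.3.3), with separate fits of the 6 libraries for each treatment comparison. Differences between effects, and recipients against females, used 12 libraries. All 8 or 9 matched members passed the filter. SE is the size of the log2 change divided by the square root of F. The steps were tested on simulated data. DESeq2 1.42.0, no filter, a mean of at least 1 CPM, a shared spread and leaving out each mouse were alternatives.

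The members, gene lists and tests were chosen with earlier results of these data known. The text names each member, the called genes of a list (or up to 3 with the smallest p), genes among the 8 nearest profiles, and genes said to be chosen after their values were seen, which also include Ifng, Ifngr1 and the Gbp genes of chromosome 5. Some genes that this rule names are not reported here.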

Additional observations from a re-analysis of the deposited data

How the results depend on the processing

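In the 3 treatment comparisons and the differences between them, no member was called under any alternative run, DESeq2 and each left-out mouse included, and the median change of the members held its sign under each scaling, filter and spread. With 1 mouse left out this median ranged over -0.42 to 0.01 in males, 0.15 to 0.41 in females and -0.10 to 0.17 in recipients. Over all genes, LDP males against control males gave 1 call, and 42 with DESeq2, 2 without the filter, 0 with a shared spread and 0 to 66 with 1 mouse left out (66 without LDP male 11). LDP females against control females gave 0 calls, and 15 with DESeq2, 1 without the filter and 0 to 1 with 1 mouse left out. LDP-microbiota recipients against control-microbiota recipients gave 1 call, and 28 with DESeq2, 2 without the filter, 3 with a shared spread and 0 to 4 with 1 mouse left out (4 without LDP-microbiota recipient 8). The male minus female difference gave 0 calls, 1 with DESeq2 and 0 to 1 with 1 mouse left out, and the female minus recipient difference 0, with 12 in DESeq2 and 0 to 3 with 1 mouse left out. Control-microbiota recipients against control females gave 1346 calls (860 to 1604 with 1 mouse left out), and the LDP pair of these groups, added after seeing the data, 2266. Members called there were 2, with 4 in DESeq2, 1 without the filter, 1 to 2 with 1 mouse left out and 6 in the added pair, where Irgm1 turned to -0.087. Without the filter Gbp6 had an adjusted p of 0.0676. The cause was not tested.

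Small changes turned sign when 1 mouse was left out. In males the ranges were -0.65 to 0.029 for Gbp3, -0.27 to 0.23 for Gbp7, -0.39 to 0.0038 for Irgm1, -0.46 to 0.024 for Irgm2 and -0.17 to 0.10 for Iigp1. In females Igtp ranged over -0.10 to 0.35. In recipients the ranges were -0.12 to 0.14 for Gbp2, -0.14 to 0.26 for Gbp3, -0.19 to 0.48 for Gbp6, -0.29 to 0.17 for Gbp7, -0.067 to 0.30 for Igtp, -0.066 to 0.096 for Irgm1, -0.22 to 0.25 for Irgm2 and -0.10 to 0.27 for Iigp1. For the female minus recipient difference they were -0.16 to 0.54 for Gbp6, -0.27 to 0.18 for Igtp, -0.020 to 0.47 for Irgm2 and -0.042 to 0.32 for Iigp1. In control-microbiota recipients against control females they were -0.0040 to 0.22 for Irgm1 and -0.24 to 0.13 for Iigp1. No paired analysis was possible because the labels name no cage, litter or donor by which mice could be paired. Depth limits Ifng, with at most 8 counts in a library.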
